A study of Mus musculus with 6 samples.

Results

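The genes described here encode the digestive enzymes, membrane proteins and proton pump of the lysosome, together with the TFEB family transcription factors. They are a list of 45 genes chosen by symbol for what they encode, with the cathepsins left out, and all 45 were found among the 55493 genes of the count table. RNA was sequenced from microglia, the resident macrophages of the brain, of male ILT Telo Tg x 5XFAD mice. ILT Telo Tg is a transgene carrying human LILR genes and 5XFAD is an amyloid model of Alzheimer disease, and both groups carried both. Treatment began at 4 months of age and consisted of weekly injections over 8 weeks of 60 mg/kg of either Fc-mutant anti-ILT3 mAb (ZM3.1), which binds LILRB4, an inhibitory receptor of myeloid cells also called ILT3, or Fc-mutant Ctrl mAb (27D6). Each group had 3 libraries, called control libraries 1 to 3 and anti-LILRB4 libraries 1 to 3. No group without amyloid, without the human transgene or without antibody was part of the comparison. Whether each library represents a different mouse is not stated in the labels. The p-values therefore cover only the spread among these 6 libraries, which may be technical.

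Lysosomes are the acidic compartments in which a cell digests what it has taken up and what it recycles from its own cytoplasm. Their enzymes cut sugars, lipids, sulfate esters and proteins, and most work only at the low pH that the V-ATPase maintains by pumping protons with the energy of ATP. TFEB, TFE3 and MITF are related transcription factors that move to the nucleus when mTORC1 signalling at the lysosome falls. They bind a short palindromic element (the CLEAR element, an extended E-box) near the start of many lysosomal genes. In microglia, lysosomal capacity matters because the cells take up debris, lipids and amyloid, and inherited loss of several of these genes causes lysosomal storage disease with brain involvement.

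The sequences of 5 stretches upstream of members are shown because their letters match, in full or in part, the element that TFEB family factors bind. They belong to members with positive as well as negative fold changes. The search used the region of 250 bases before the start site in the RefSeq promoter table (GRCm38.p6), in which 40 of the 45 members had an entry. The core searched was CACGTG, the 7-base forms were TCACGTG and its reverse complement CACGTGA, and the 8-base palindrome was TCACGTGA. The longer forms contain the core, and all 3 searches cover both strands. Each stretch runs 5′ to 3′ in the direction of the gene, with the core and a matching flanking T or A in capitals.
Cln3 (chr7:126583339-126583397, minus strand): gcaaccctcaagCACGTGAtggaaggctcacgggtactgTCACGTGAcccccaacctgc
Gla (chrX:134601181-134601245, minus strand): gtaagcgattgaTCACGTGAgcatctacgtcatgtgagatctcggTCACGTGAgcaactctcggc
Mcoln1 (chr8:3500435-3500492, plus strand): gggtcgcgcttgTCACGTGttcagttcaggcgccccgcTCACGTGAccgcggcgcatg
Lamp1 (chr8:13159087-13159160, plus strand): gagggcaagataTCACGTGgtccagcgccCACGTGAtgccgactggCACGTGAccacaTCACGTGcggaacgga
Sgsh (chr11:119355521-119355551, minus strand): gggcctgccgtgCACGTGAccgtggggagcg
The Cln3 stretch precedes a RefSeq start inside the gene, and the table's other Cln3 start had no core in its window.

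Depth was similar between the groups, with total counts between 39805118 and 44987032 in the control libraries and between 41948140 and 56345514 in the anti-LILRB4 libraries, the deepest being anti-LILRB4 library 2. The members together took between 1.83% and 1.99% of all counts in the control libraries and between 1.90% and 2.32% in the anti-LILRB4 libraries. All 12 microglial markers were detected, and their summed level was 44513 to 46030 CPM (counts scaled to a common library total) in the control and 46002 to 46587 CPM in the anti-LILRB4 libraries, P2ry12 alone averaging 13223 and 12550 CPM. Individual markers differed from that sum, with log2 fold changes of 0.67 for Csf1r, 0.46 for Fcrls and 0.49 for Sall1. These were past an unadjusted edgeR threshold of 0.05 and not past the adjusted one. Csf1r, at 1875, 2892 and 2804 CPM in the control and 3010, 5328 and 3703 CPM in the anti-LILRB4 libraries, was highest and lowest in the same libraries as Laptm5, and the part of this in the results was not tested. The libraries also held transcripts of other cells. All 10 neutrophil markers were detected, with summed levels of 1303, 550.2 and 594.6 CPM in control libraries 1, 2 and 3 and 127, 1074 and 207 CPM in anti-LILRB4 libraries 1, 2 and 3. In the same order, monocyte markers summed to 90.1, 43.5 and 49.3 CPM and to 33.0, 67.5 and 26.7 CPM. B cell markers summed to 142, 50.1 and 101 CPM and to 91.7, 150 and 121 CPM. The sum of border-associated macrophage markers was highest in anti-LILRB4 library 3 (81.7 CPM). Mitochondrial transcripts took 3.73% to 4.69% of counts in the control and 2.80% to 3.29% in the anti-LILRB4 libraries, ranges that did not overlap. The part of RNA from these other cells and of the mitochondrial share in the results on the members was not tested.

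Of the 45 members, 44 had enough counts to be tested, and none passed the test. The test was edgeR's quasi-likelihood F test with Benjamini-Hochberg adjustment over all 18210 genes tested, and its smallest adjusted p for a member was 0.506. The test called 0% of all genes higher and 0% lower at an adjusted p of 0.05, its smallest adjusted p for any gene being 0.385. DESeq2 called 0 members in either direction (smallest adjusted p of a member 0.0929, for Laptm5), while it called 0.546% of 15378 genes higher and 0.553% lower. Before adjustment, 5 members were higher and 5 were lower at p under 0.05 by edgeR. These are 11.4% of the tested members in each direction, beside 4.12% of all genes higher and 3.91% lower. In 4 members all 3 anti-LILRB4 libraries lay above all 3 control libraries, and in 8 they lay below. Those counts are 9.09% and 18.2% of the tested members, beside 6.94% and 7.79% of all genes. The fold changes of 19 members were positive and of 25 negative, and their median log2 fold change (anti-LILRB4 minus control throughout) was −0.03, beside −0.01 over all genes tested. Standard errors (SE) of the members' log2 fold changes were between 0.08 and 0.32, with a median of 0.13. The authors' deposited table gave 0 of the 45 members an adjusted p under 0.05, and the smallest in it was 0.123, for Laptm5. In bulk RNA, fewer cells of a type and less RNA per cell cannot be told apart.

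**Figure D1:**
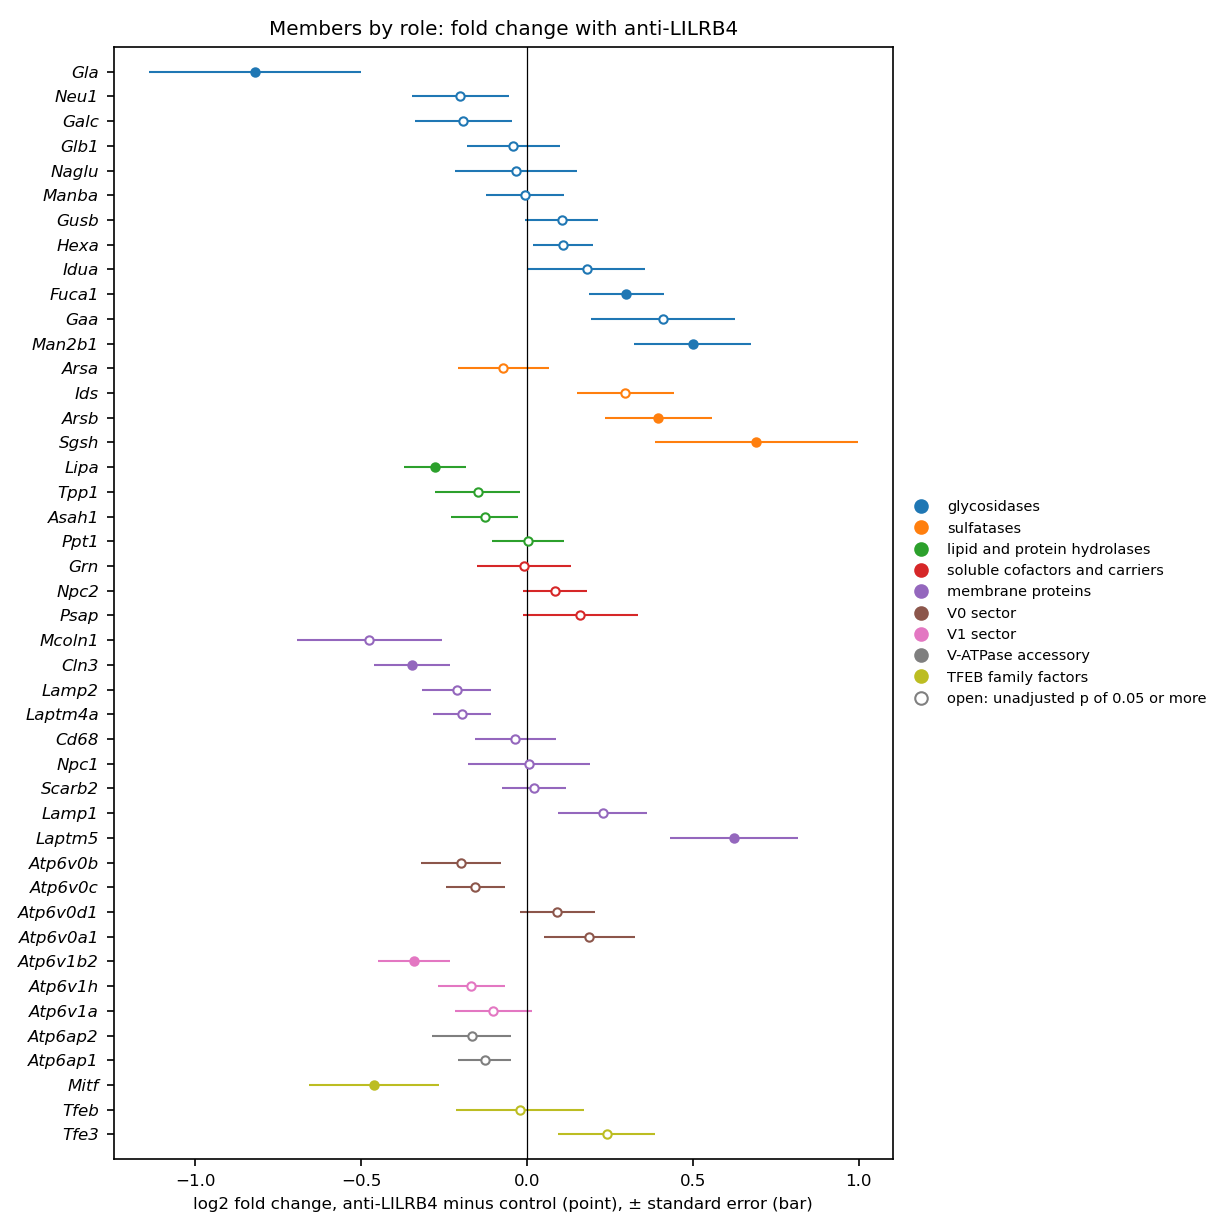
Log2 fold change (anti-LILRB4 minus control, x axis) of the 44 tested members, grouped by role, with bars of 1 standard error from edgeR and filled points where the unadjusted p is under 0.05. The members range from −0.82 (Gla) to 0.69 (Sgsh), 19 lie right of 0 and 25 left of it, and 0 passed the adjusted threshold.

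Among the 9 lysosomal membrane proteins, 4 fold changes were positive and 5 negative, with a median of −0.04. Laptm5 (chromosome 4, 130913125 to 130936141, plus strand; GENCODE M21 on GRCm38 for all gene positions) encodes a lysosomal membrane protein of blood and immune cells that sends receptors to degradation. Its level was 2301, 3341 and 3257 CPM in control libraries 1, 2 and 3 and 3451, 5992 and 4270 CPM in anti-LILRB4 libraries 1, 2 and 3. The groups did not overlap, but the lowest anti-LILRB4 library exceeded the highest control library only narrowly, and anti-LILRB4 library 2 stood far above the rest. The means were 2966 ± 578 and 4571 ± 1297 CPM (SD, n = 3 each). The log2 fold change was 0.62 (SE 0.19, edgeR unadjusted p = 0.0094, adjusted p = 0.506), and it was 0.39 without anti-LILRB4 library 2. With no filter on low counts, edgeR tested 35404 genes and called 183 higher and 117 lower. Laptm5 was among the higher ones (adjusted p = 9.32e-06). No other edgeR setting called any gene, and why this one differed was not tested.

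Cln3 (chromosome 7, 126571207 to 126585817, minus strand) encodes the membrane protein lost in juvenile Batten disease. Its levels were 252, 209 and 220 CPM in the control libraries and 180, 163 and 193 CPM in the anti-LILRB4 libraries. Every anti-LILRB4 library was below every control library. The means of 227 ± 22.0 and 179 ± 15.2 CPM (SD, n = 3 each) gave a log2 fold change of −0.35 (SE 0.11, edgeR unadjusted p = 0.0128, adjusted p = 0.506). The exons of Apobr overlap 7.65% of those of Cln3, and the kit does not mark strand, so reads of that stretch cannot be assigned.

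Laptm4a, a relative of Laptm5 found in most cells, differed in the other direction from it. Its levels were 1349, 1181 and 1236 CPM in the control libraries and 1139, 1017 and 1132 CPM in the anti-LILRB4 libraries. The groups did not overlap, and the log2 fold change was −0.20 (SE 0.09, edgeR unadjusted p = 0.0513, adjusted p = 0.624). For Mcoln1, the calcium channel of the lysosomal membrane (TRPML1), the libraries gave 12.6, 19.8 and 16.5 CPM in the controls and 10.5, 13.5 and 11.1 CPM after anti-LILRB4. Its groups overlapped, with a log2 fold change of −0.48 (SE 0.22, edgeR unadjusted p = 0.0557, adjusted p = 0.63).

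LAMP1 and LAMP2 are the main glycoproteins of the lysosomal membrane, and LAMP2 is also the receptor of chaperone-mediated autophagy. Lamp1 measured 54.9, 49.7 and 48.6 CPM in the control libraries and 51.5, 64.1 and 63.9 CPM in the anti-LILRB4 libraries. Anti-LILRB4 libraries 2 and 3 were above all controls and library 1 was not. The log2 fold change of Lamp1 was 0.23 (SE 0.13, edgeR unadjusted p = 0.119, adjusted p = 0.705), and 9.31% of its exons overlap Grtp1. Lamp2 measured 1384, 1228 and 1374 CPM in the control libraries and 1297, 1014 and 1131 CPM in the anti-LILRB4 libraries, with a log2 fold change of −0.21 (SE 0.10, edgeR adjusted p = 0.643). Per kilobase of exon, Lamp1 was much the lower of the pair, with means of 19.1 CPM in the controls and 22.4 CPM after anti-LILRB4, against 139 and 120 CPM for Lamp2.

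Cd68, a heavily glycosylated LAMP relative used as a marker of phagocytic macrophages, averaged 1175 ± 89.8 CPM in the controls and 1146 ± 194 CPM after anti-LILRB4 (SD, n = 3 each). Its libraries were 1080, 1259 and 1186 CPM against 979, 1358 and 1101 CPM, so the anti-LILRB4 libraries held both the highest and the lowest value. The log2 fold change was −0.04 (SE 0.12, edgeR adjusted p = 0.965). For Npc1, the membrane transporter that moves cholesterol out of lysosomes, the values were 107, 147 and 172 CPM and 144, 167 and 117 CPM, with a log2 fold change of 0.00 (SE 0.18, edgeR adjusted p = 0.997). Scarb2, the receptor that carries glucocerebrosidase to the lysosome, had a log2 fold change of 0.02 (SE 0.10).

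**Figure D2:**
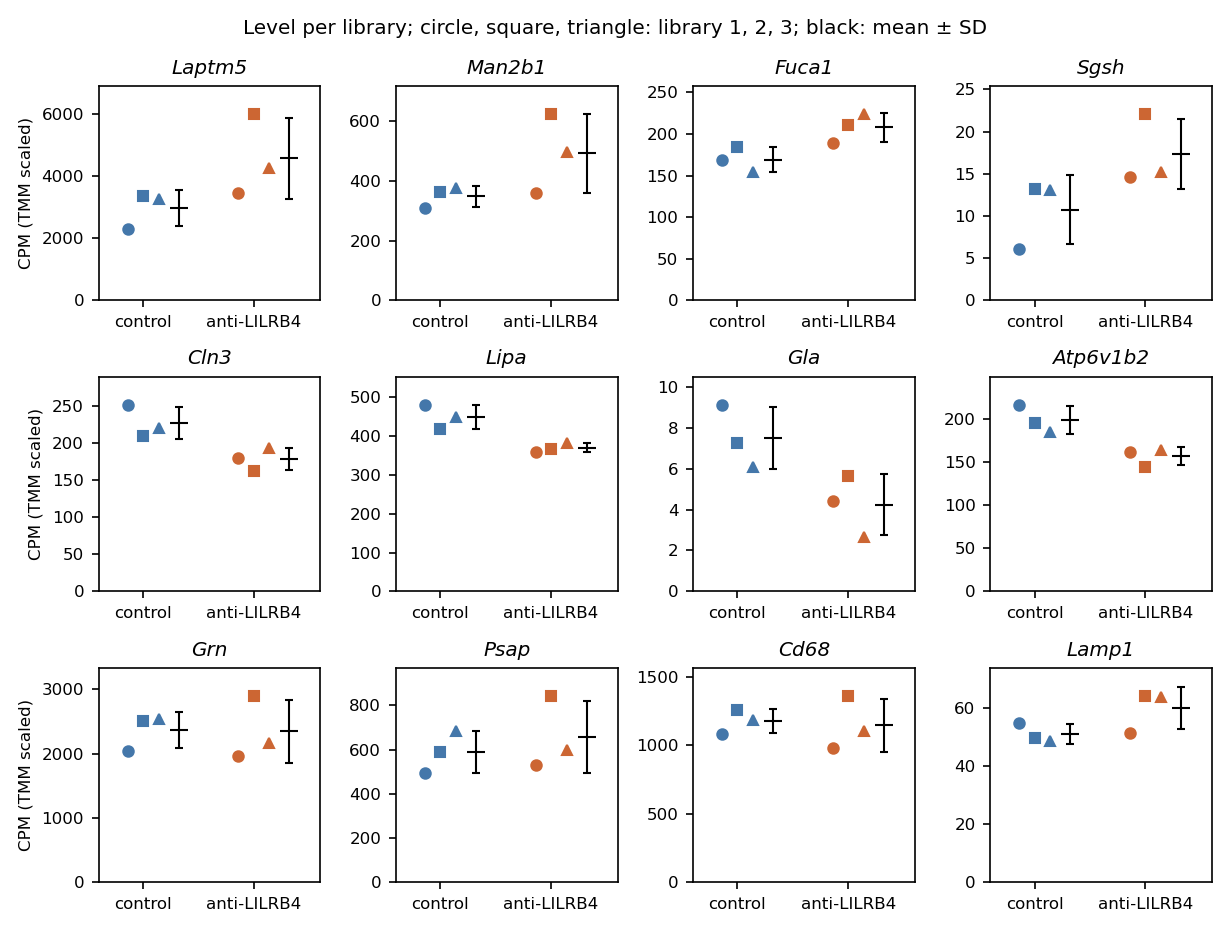
CPM (linear axes from 0) of 12 members, with 1 point per library in blue (control) or orange (anti-LILRB4) and the mean ± SD of each group in black. Laptm5, Fuca1 and Sgsh have all 3 anti-LILRB4 points above the control points, while Cln3, Lipa, Gla and Atp6v1b2 have all 3 below.

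The 12 glycosidases, which remove sugars from glycoproteins, glycolipids and glycosaminoglycans, were divided equally, with 6 positive and 6 negative fold changes and a median of 0.05. Man2b1 (chromosome 8, 85083270 to 85098282, plus strand) encodes lysosomal alpha-mannosidase. Its levels were 308, 361 and 374 CPM in the control libraries and 358, 622 and 494 CPM in the anti-LILRB4 libraries. Libraries 2 and 3 of the anti-LILRB4 group were above all controls, and library 1 lay within them. The means gave a log2 fold change of 0.50 (SE 0.18, edgeR unadjusted p = 0.0183, adjusted p = 0.525). Without anti-LILRB4 library 2 it was 0.30. Without the filter on low counts, the only setting in which edgeR called any gene (183 of 35404 higher), it called Man2b1 as well (adjusted p = 0.0106).

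Fuca1 (chromosome 4, 135920735 to 135940311, plus strand), which encodes the fucosidase, measured 169, 184 and 154 CPM in the control libraries and 189, 211 and 224 CPM in the anti-LILRB4 libraries. The groups did not overlap and lay close together. The means of 169 ± 15.1 and 208 ± 17.6 CPM (SD, n = 3 each) gave a log2 fold change of 0.30 (SE 0.11, edgeR unadjusted p = 0.025, adjusted p = 0.559). Hexa, the alpha subunit of beta-hexosaminidase that is lost in Tay-Sachs disease, was the most abundant glycosidase per kilobase of exon (361 CPM in the controls and 390 CPM after anti-LILRB4). Its libraries measured 739, 685 and 739 CPM against 744, 846 and 745 CPM, without overlap but with a log2 fold change of only 0.11 (SE 0.09, edgeR unadjusted p = 0.255, adjusted p = 0.802). Of the Hexa exons, 12.8% overlap Tmem202.

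Gla (chromosome X, 134588149 to 134601125, minus strand), the alpha-galactosidase lost in Fabry disease, had the most negative fold change of the 44 tested members and, averaged over all 6 libraries, the lowest level per kilobase among them. It measured 9.11, 7.26 and 6.10 CPM in the control libraries and 4.41, 5.62 and 2.67 CPM in the anti-LILRB4 libraries. All anti-LILRB4 values were below all control values, and they differed among themselves by more than the gap between the groups. The log2 fold change was −0.82 (SE 0.32, edgeR unadjusted p = 0.0286, adjusted p = 0.566). The other glycosidases had edgeR unadjusted p-values of 0.0873 or more. Gaa, the alpha-glucosidase lost in Pompe disease, had a log2 fold change of 0.41 (SE 0.22), with anti-LILRB4 library 2 alone at 144 CPM and the other anti-LILRB4 libraries at 77.6 and 92.7 CPM. Idua and Gusb, which degrade glycosaminoglycans, had log2 fold changes of 0.18 and 0.10. The sialidase Neu1 had −0.20 and the galactosylceramidase Galc −0.19. Glb1 (beta-galactosidase), Naglu and Manba had −0.04, −0.03 and −0.01.

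The 4 sulfatases remove sulfate groups from glycosaminoglycans and sulfatides, and 3 of them had positive fold changes, with a median of 0.35. Arsb (chromosome 13, 93771630 to 93943016, plus strand), the N-acetylgalactosamine sulfatase, had the highest level per kilobase of the 4. Its values were 73.0, 78.0 and 95.1 CPM in the control libraries and 90.2, 130 and 103 CPM in the anti-LILRB4 libraries, overlapping between control library 3 and anti-LILRB4 library 1. Its log2 fold change was 0.40 (SE 0.16, edgeR unadjusted p = 0.033, adjusted p = 0.575), and 0.25 without anti-LILRB4 library 2. The exons of Gm26527 overlap 32.3% of those of Arsb, so its value is uncertain.

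Sgsh (chromosome 11, 119343425 to 119355536, minus strand) encodes the heparan sulfatase lost in Sanfilippo disease type A. It measured 6.06, 13.2 and 13.04 CPM in the control libraries and 14.7, 22.1 and 15.3 CPM in the anti-LILRB4 libraries. The groups did not overlap, and control library 1 was well below the other controls. Its log2 fold change of 0.69 (SE 0.31, edgeR unadjusted p = 0.0475, adjusted p = 0.616) became 0.41 without control library 1. The exons of Card14 overlap 21.6% of those of Sgsh. Ids, the iduronate sulfatase, had a log2 fold change of 0.30 (SE 0.15, edgeR unadjusted p = 0.0714), and Arsa, the arylsulfatase of sulfatide breakdown, had −0.07. The exons of C230037L18Rik overlap 18.75% of those of Arsa.

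Of the 4 lipid and protein hydrolases, 3 had negative fold changes and the median was −0.14. Lipa (chromosome 19, 34492318 to 34527474, minus strand) encodes lysosomal acid lipase, which frees cholesterol and fatty acids from the esters a macrophage takes up. Its levels were 479, 417 and 448 CPM in the control libraries and 359, 367 and 383 CPM in the anti-LILRB4 libraries. The groups did not overlap, and the anti-LILRB4 libraries were tightly grouped (370 ± 11.8 CPM against 448 ± 31.0 CPM, SD, n = 3 each). The log2 fold change was −0.28 (SE 0.09, edgeR unadjusted p = 0.0142, adjusted p = 0.506). Asah1, the acid ceramidase and the most abundant of the 4 per kilobase (292 and 267 CPM), measured 1074, 898 and 994 CPM in the controls and 999, 850 and 866 CPM after anti-LILRB4. Its groups overlapped, with a log2 fold change of −0.13 (SE 0.10, edgeR adjusted p = 0.793). The tripeptidyl peptidase Tpp1 had a log2 fold change of −0.15 (SE 0.13), and the palmitoyl-protein thioesterase Ppt1 had 0.00.

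For the 3 soluble cofactors and carriers the groups overlapped, and the median log2 fold change was 0.08. Grn, which encodes progranulin, a secreted and lysosomal protein whose loss causes frontotemporal dementia or lysosomal storage disease, was abundant in every library. It measured 2040, 2505 and 2547 CPM in the control libraries and 1973, 2899 and 2174 CPM in the anti-LILRB4 libraries, with both extremes in the anti-LILRB4 group. The means of 2364 ± 282 and 2348 ± 487 CPM (SD, n = 3 each) gave a log2 fold change of −0.01 (SE 0.14, edgeR adjusted p = 0.994). Psap, the precursor of the saposins that help hydrolases reach lipids, measured 493, 588 and 683 CPM against 531, 843 and 598 CPM, and only anti-LILRB4 library 2 was above the controls. Its log2 fold change was 0.16 (SE 0.17, edgeR adjusted p = 0.85). Npc2, the soluble cholesterol carrier that hands cholesterol to NPC1, measured 541, 481 and 462 CPM against 498, 528 and 548 CPM, with a log2 fold change of 0.08 (SE 0.10, edgeR adjusted p = 0.86).

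The TFEB family factors had 3 different patterns. Mitf (chromosome 6, 97807052 to 98021349, plus strand) measured 34.1, 48.4 and 45.9 CPM in the control libraries and 25.1, 38.5 and 29.6 CPM in the anti-LILRB4 libraries. The groups overlapped through control library 1 and anti-LILRB4 library 2, and the log2 fold change was −0.46 (SE 0.20, edgeR unadjusted p = 0.04, adjusted p = 0.601). Tfe3 measured 106, 125 and 132 CPM against 117, 165 and 147 CPM, and its log2 fold change was 0.24 (SE 0.15, edgeR adjusted p = 0.72). For Tfeb the libraries gave 19.1, 26.3 and 22.2 CPM and 24.9, 24.1 and 17.7 CPM, a log2 fold change of −0.02 (SE 0.19, edgeR adjusted p = 0.989). Per kilobase of exon Tfe3 was the most abundant (13.1 CPM in the controls), followed by Mitf (6.91 CPM) and Tfeb (3.98 CPM). RNA levels do not show where these proteins are in the cell, which is how they are mainly controlled.

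The V-ATPase consists of a membrane sector that carries the protons (V0), a cytoplasmic sector that splits ATP (V1) and accessory proteins. Of the 10 V-ATPase members, 9 were tested, and 7 of those had negative fold changes, with a median of −0.16. In 4 of them the anti-LILRB4 libraries lay below the control libraries without overlap, and in 0 above, beside 7.79% below and 6.94% above over all genes. The other 35 members had 17 positive and 18 negative fold changes, a median of −0.01, and 4 members without overlap in each direction. The difference between these sets of members was not tested.

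In the V1 sector, Atp6v1b2 (chromosome 8, 69088646 to 69113711, plus strand), the B subunit at the ATP-binding interface used in most tissues, measured 216, 196 and 185 CPM in the control libraries and 162, 145 and 164 CPM in the anti-LILRB4 libraries. Every anti-LILRB4 library was below every control library. The means of 199 ± 16.1 and 157 ± 10.5 CPM (SD, n = 3 each) gave a log2 fold change of −0.34 (SE 0.11, edgeR unadjusted p = 0.0107, adjusted p = 0.506). Atp6v1h, the regulatory H subunit, measured 147, 139 and 135 CPM against 126, 121 and 127 CPM, again without overlap, with a log2 fold change of −0.17 (SE 0.10, edgeR adjusted p = 0.716). The catalytic A subunit Atp6v1a measured 169, 160 and 163 CPM against 160, 132 and 166 CPM. Its groups overlapped, and its log2 fold change was −0.10 (SE 0.12).

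In the V0 sector, Atp6v0c, which encodes the proton-carrying ring subunit c, measured 536, 499 and 509 CPM in the control libraries and 446, 489 and 451 CPM in the anti-LILRB4 libraries. The groups did not overlap, and the log2 fold change was −0.16 (SE 0.09, edgeR unadjusted p = 0.11, adjusted p = 0.693). The annotation also holds the processed pseudogenes Atp6v0c-ps1 and Atp6v0c-ps2, so the split of reads between the copies is uncertain. Atp6v0b, the related ring subunit, was the most abundant V0 member and measured 973, 770 and 840 CPM against 811, 644 and 795 CPM, with overlap and a log2 fold change of −0.20 (SE 0.12, edgeR adjusted p = 0.717). The exons of Gm12841 overlap 11.8% of those of Atp6v0b. Atp6v0a1 and Atp6v0d1 had log2 fold changes of 0.19 and 0.09 (SE 0.14 and 0.11). Atp6v0d2, the d isoform of osteoclasts and some macrophages, was not tested. It had 25 reads in control library 3, 34 reads in anti-LILRB4 library 1 and 0 in each of the other libraries.

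Both accessory members had negative fold changes. Atp6ap1, an assembly factor of the pump, measured 1314, 1232 and 1269 CPM in the control libraries and 1229, 1120 and 1142 CPM in the anti-LILRB4 libraries, which placed the highest anti-LILRB4 library just below the lowest control. Its log2 fold change was −0.13 (SE 0.08, edgeR adjusted p = 0.735). Atp6ap2, the (pro)renin receptor, measured 498, 394 and 433 CPM against 434, 353 and 393 CPM, with overlap and a log2 fold change of −0.17 (SE 0.12, edgeR adjusted p = 0.768).

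With the subunits that are no members added, the V-ATPase and its accessory proteins came to 26 genes, of which 20 were tested. Negative fold changes were found for 15 of the 20 and positive ones for 5, with a median of −0.14, beside −0.01 over all genes. The anti-LILRB4 libraries lay below the controls without overlap in 6 and above in 1, beside 7.79% and 6.94% of all genes. That 1 gene was Atp6v0a2, a V0 isoform with a log2 fold change of 0.19. At an unadjusted p under 0.05, 2 subunits were lower (3.91% of all genes were), and both belong to V1. They were Atp6v1b2 and Atp6v1c1, the C subunit, which measured 286, 243 and 255 CPM in the control libraries and 240, 201 and 213 CPM in the anti-LILRB4 libraries (log2 fold change −0.26, SE 0.11, edgeR adjusted p = 0.596).

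**Figure D3:**
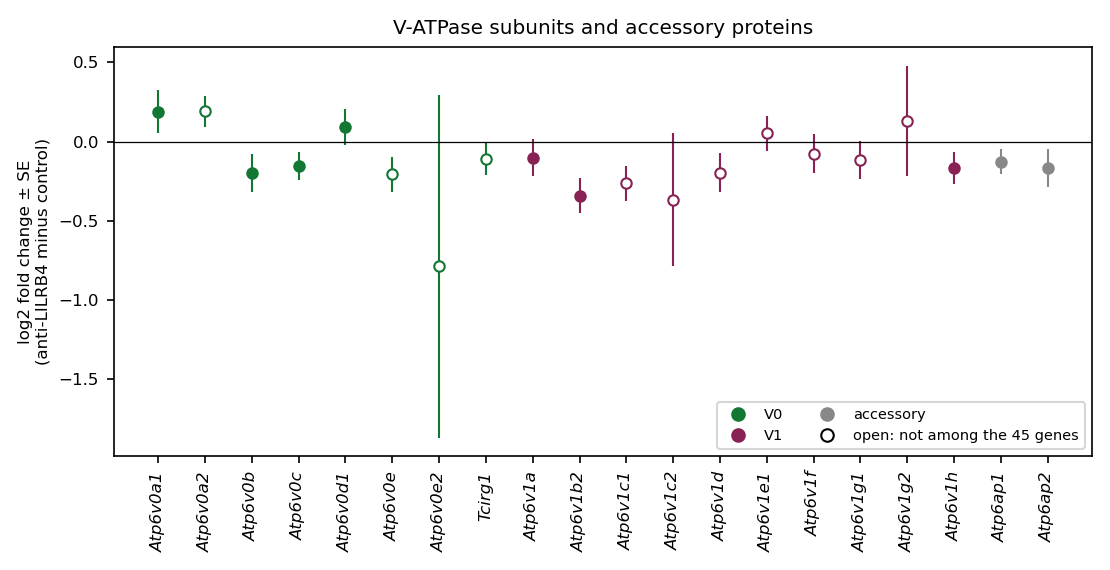
Log2 fold change (anti-LILRB4 minus control, y axis) with bars of 1 standard error from edgeR for the 20 tested V-ATPase subunits and accessory genes, coloured by sector, with open points for subunits outside the list of 45. Of the 20 genes, 15 lie below 0.

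The level of the 44 tested members spanned a 554-fold range per kilobase of exon, with the untested Atp6v0d2 below all of them. Laptm5 was highest, with a mean of 783 CPM per kilobase in the controls and 1207 after anti-LILRB4. Cd68 followed with 935 and 912, then Grn with 681 and 676 and Laptm4a with 708 and 618. Cd68 was thus above Laptm5 in the control libraries and below it in the anti-LILRB4 libraries, where Laptm5 varied most. At the low end, Gla (2.29 and 1.30 CPM per kilobase), Mcoln1 (2.15 and 1.55) and Sgsh (2.44 and 3.93) had the fewest reads among the tested members. Gla and Sgsh had the largest SE. Averaged over all libraries, Galc (2.52 CPM per kilobase) was below Sgsh (3.18) per kilobase, but had more reads.

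**Figure D4:**
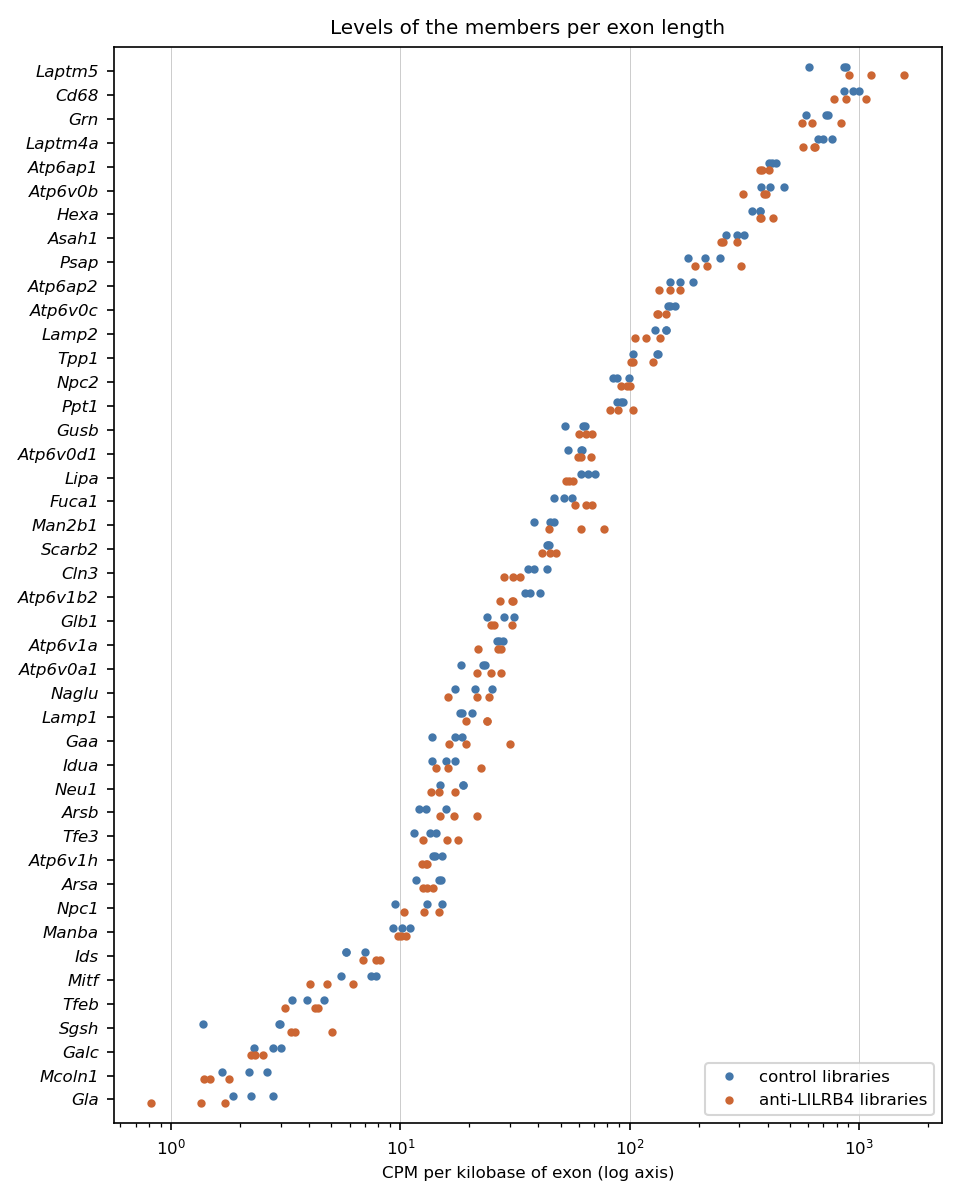
Level of each tested member in CPM per kilobase of exon (log axis), with 1 point per control (blue) and anti-LILRB4 (orange) library, ordered by mean level. Laptm5, Cd68, Grn and Laptm4a lie at the top, Gla and Mcoln1 at the bottom.

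The extreme values of the members gathered in a few libraries. Anti-LILRB4 library 2 was the highest of the 6 for 16 of the 44 tested members (36.4%, beside 19.0% of all genes) and the lowest for 11 (25.0%, beside 17.2%). Among the 9 tested V-ATPase members it was the lowest library for 6 and the highest for 1, and among the other 35 it was the highest for 15 and the lowest for 5. Control library 1 was the highest for 7 of the 9 V-ATPase members and the lowest for 1, and among the other 35 it was the highest for 7 and the lowest for 13. Over all genes control library 1 was the highest for 23.0% and the lowest for 23.1%, more often than any other library. The difference between V-ATPase and other members was not tested. These 2 libraries also had the highest marker sums for neutrophils (1303 CPM in control library 1 and 1074 CPM in anti-LILRB4 library 2), monocytes and B cells. The neutrophil sum rests on its most abundant markers. As a mean of log2 levels over the 10 markers, relative to the control mean, control library 1 was at 0.68. Anti-LILRB4 library 2 was at −0.31 on that measure, below control library 3 (−0.25). Control library 1 had the highest mitochondrial share (4.69%) and anti-LILRB4 library 2 the lowest (2.80%).

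Fold change also varied with base composition. Among the 15 members with the lowest exon GC content (40.9% to 48.7%), 12 fold changes were negative and the median was −0.17. Among the 14 in the middle (49.0% to 53.4%), 5 were negative and the median was 0.09, and among the 15 with the highest (53.6% to 61.3%), 8 were negative and the median was −0.01. Over all genes, split in the same way, the medians were −0.05, 0.00 and 0.06. Spearman's rho of fold change with GC content was 0.30 across the 44 members and 0.13 across all genes with a value, a description across genes that share the same 6 libraries.

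The core of the CLEAR element was found before the start site of 11 of the 40 members with a RefSeq promoter (27.5%), beside 6.86% of 27025 genes in the table, 9.72% of the genes tested here and 15.9% of the 107 other lysosomal pathway genes with an entry. All 11 held a 7-base form, found in 3.58% of the genes in the table and 5.66% of those tested. They were Cln3, Gla, Mcoln1, Atp6v1a, Sgsh, Gaa, Lamp1, Atp6v0b, Arsa, Glb1 and Naglu. Lamp1 held 4 cores within the 61 bases before its start, as its sequence above shows, and Cln3, Gla, Mcoln1 and Atp6v0b held 2 each. The full 8-base palindrome was present in 4 members (10.0%), Cln3, Gla, Mcoln1 and Atp6v1a, beside 0.907% of the genes in the table, 1.79% of those tested and 8.41% of the 107 other lysosomal pathway genes.

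Members with and without the core were found on both sides of 0. Among the 11 members that held it, 3 fold changes were positive (Sgsh, Gaa and Lamp1) and 8 negative, with a median of −0.07 and a range of −0.82 to 0.69. The 29 members without it had 15 positive and 14 negative fold changes and a median of 0.00. The 4 members with the 8-base palindrome all had negative fold changes, with a median of −0.41. This was not tested, and the fold changes of other genes with the palindrome were not compared. Of the 4, Gla and Mcoln1 were among the 3 tested members with the fewest reads. Atp6v1a was at −0.10 (edgeR unadjusted p = 0.4), and the palindrome of Cln3 precedes only the start inside the gene. A match of letters is not a binding site, and the absence of one says only that these letters are not in this window.

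**Figure D5:**
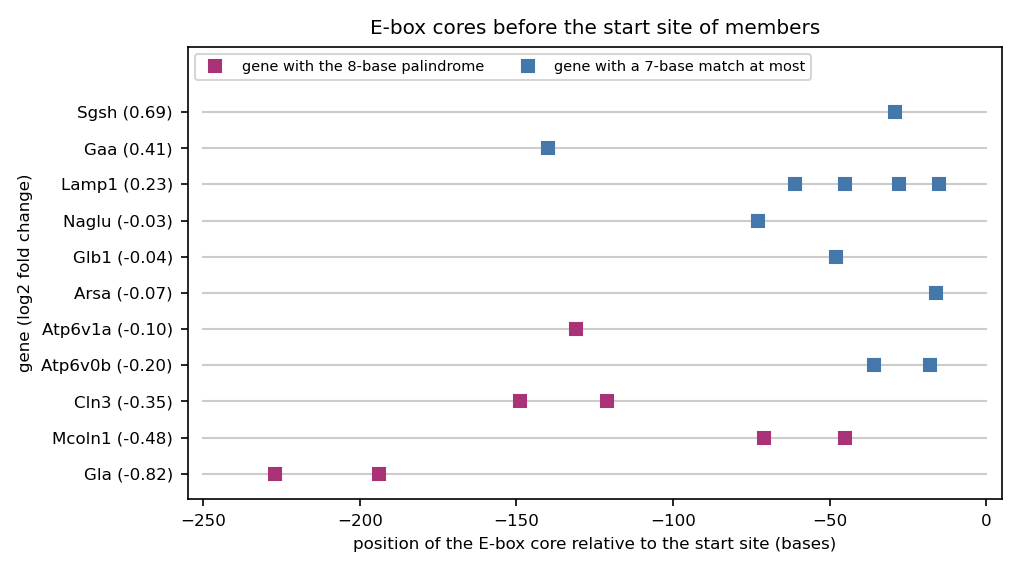
Position of each E-box core relative to the start site (bases, x axis) in the 11 members that hold one, ordered by log2 fold change, with members that hold the 8-base palindrome in purple and the others in blue. Cores lie between 227 and 15 bases before the start, and Lamp1 has 4 of them.

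The rest of the lysosomal pathway was read from 5 further lists, in which edgeR called 0 genes. Among 32 tested other hydrolases and cofactors, 15 fold changes were positive and 17 negative (median −0.03), and before adjustment (p under 0.05) 2 were higher and 3 lower, or 6.25% and 9.38%, beside 4.12% and 3.91% of all genes. Gm2a, the activator protein with which hexosaminidase degrades GM2 ganglioside, measured 111, 124 and 125 CPM in the controls and 125, 226 and 169 CPM after anti-LILRB4 (log2 fold change 0.53, SE 0.19, edgeR adjusted p = 0.523). Dpp7, a dipeptidyl peptidase, measured 69.0, 52.1 and 76.2 CPM against 44.5, 50.3 and 51.1 CPM (log2 fold change −0.44, SE 0.16, edgeR adjusted p = 0.534). Both differed without overlap, in opposite directions, but only narrowly. For Gm2a the highest control was at 125.17 CPM and the lowest anti-LILRB4 library at 125.23 CPM. For Dpp7 the lowest control was at 52.1 CPM and the highest anti-LILRB4 library at 51.1 CPM.

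Among 29 other membrane proteins and transporters 10 fold changes were positive and 19 negative (median −0.09), and before adjustment 1 was higher and 5 lower, or 3.45% and 17.2%, beside the same 4.12% and 3.91%. Cd63, a tetraspanin of late endosomes, had the smallest p, with a log2 fold change of −0.71 (SE 0.12, edgeR adjusted p = 0.385), and DESeq2 called it (adjusted p = 0.00018). Ctns, the cystine exporter, measured 185, 159 and 184 CPM against 134, 155 and 137 CPM, a log2 fold change of −0.31 (SE 0.11, edgeR adjusted p = 0.538). Of 20 other V-ATPase subunits and assembly factors 7 were positive and 13 negative (median −0.11), and before adjustment 1 was past that p in each direction (5.00% each, beside 4.12% and 3.91%). The higher one was Rogdi, a subunit of a V-ATPase assembly complex, at 114, 126 and 113 CPM in the controls and 139, 160 and 150 CPM after anti-LILRB4 (log2 fold change 0.35, SE 0.11, edgeR adjusted p = 0.506).

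The 20 genes of sorting and enzyme maturation had 14 positive and 6 negative fold changes (median 0.06), and before adjustment 1 was higher (5.00%, beside 4.12%) and 0 lower. That gene was Sort1, the sorting receptor sortilin, at 39.97, 54.9 and 50.5 CPM in the controls and 54.0, 66.6 and 68.4 CPM after anti-LILRB4 (log2 fold change 0.38, SE 0.16, edgeR adjusted p = 0.58). Igf2r, the large mannose 6-phosphate receptor, had next to no reads, with 0.249 CPM in control library 1, 0 in the other controls and at most 1.73 CPM in an anti-LILRB4 library. The 27 regulators of TFEB and of mTORC1 at the lysosome had 13 positive and 14 negative fold changes (median −0.02), and before adjustment 0 were higher and 1 lower (3.70%, beside 3.91%). The lower one was Bhlhe40, a transcription factor that can bind E-boxes, at 10.3, 7.26 and 8.03 CPM in the controls and 5.36, 4.36 and 3.50 CPM after anti-LILRB4, without overlap (log2 fold change −0.95, SE 0.27, edgeR adjusted p = 0.451). Rheb, the GTPase that activates mTORC1, had a log2 fold change of −0.30 (SE 0.13, edgeR adjusted p = 0.624).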

How the data were processed

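RNA sequencing was done on sorted CD45-low CD11b-positive microglia, using a kit for small RNA amounts whose reads carry no strand, per the labels' protocols. The authors deposited raw read counts per Ensembl gene. Their other deposited table lists, from the authors' own test, log2 fold changes, a score (the fold change divided by its error), p-values and a mean normalized signal per gene, which per the file headers are DESeq2 columns. The submitters' processing notes name STAR, featureCounts, Salmon and DESeq2 without their roles. No genome build or annotation was named there. Of 24360 genes of the authors' deposited test that have a GENCODE M21 entry, 499 (2.05%) had the same chromosome and start in both. The exon overlaps, exon lengths and GC contents given here are those of GENCODE M21, and the counts may rest on other gene models.

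The 287 rows that repeated an identifier were dropped. Genes passing filterByExpr (minimum count 10) were fitted with edgeR 4.0.16 in R 4.3.3, with TMM scaling, the quasi-likelihood F test and no covariate, and adjusted by the Benjamini-Hochberg method over all 18210 genes. CPM uses TMM library sizes, and levels per kilobase use GENCODE M21 exon lengths. DESeq2 1.42.0 and limma 3.58.1 (voom) were alternatives, beside other scalings and filters, robust dispersion, protein-coding genes only, a replicate block and leaving out each library. A length and GC correction was chosen after seeing the data. The tests were checked on simulated counts with log2 changes of 1 and 2. Of these changes edgeR called 72% and 99%, with 10 false calls. DESeq2 called 82% and 100%, with 46 false calls, and voom 69% and 99%, with 9. All fold changes of members were smaller than those simulated, so how often changes of their size would be called is not known. Over all genes tested, deviations from the group mean in same-numbered libraries of the groups had correlations of 0.014, 0.029 and −0.014. These values do not settle whether the numbers pair the libraries, and the main fit used no pairing.

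The members, lists and named genes were chosen with earlier results of these data known. Values per library are given for the 2 members of each role with the smallest p and its most abundant member. They are also given for 9 members chosen by name, some of which met that rule already, and 2 genes of each pathway list are named. Laptm4a and Lamp2 were outside this choice and have values per library too. Gla and Mcoln1, which are among the 4 members with the 8-base palindrome, had further values or sequences added. The sequences of Lamp1 and Sgsh, with 7-base forms only, were shown, while that of Atp6v1a, which holds the palindrome, was not. Values for Atp6v0a2, Atp6v1a and Gaa were chosen after they were seen. Python 3.11.15 and matplotlib 3.10.9 made the figures.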

Additional observations from a re-analysis of the deposited data

How the results depend on the processing

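Of the 44 tested members, 32 had the same direction of fold change in each of the 18 alternatives and 39 in the 4 alternative scalings. edgeR called 0 members in each setting but one: with no filter on low counts it called 2 members higher, Laptm5 and Man2b1, among 183 higher and 117 lower genes. The count of members lower at an unadjusted p under 0.05 was 5, and it was 8 with protein-coding genes only. In a fit with a replicate block it was 9 and 0 members were called (smallest adjusted p of a member 0.263), while the count higher went from 5 to 6. At the adjusted threshold the block changed no call for a member. Leaving out 1 library at a time moved the count higher, which was 5, between 2 (without control library 1) and 8 (without anti-LILRB4 library 1), with 3 without anti-LILRB4 library 2 or 3. The count lower moved between 3 (without control library 2 or anti-LILRB4 library 3) and 6. The median log2 fold change of the members stayed between −0.08 and 0.02 when a library was left out and was −0.07 with the length and GC correction. Fold changes near 0 changed sign. Npc1 was at −0.026 with upper quartile scaling, −0.000605 with the CPM filter, −0.0145 with protein-coding genes only and −0.0529 with the length and GC correction, and Grn was at 0.0035 with library size only. With a library left out, the log2 fold change ranged from −0.168 to 0.0664 for Cd68, from −0.164 to 0.165 for Npc1, from −0.0509 to 0.293 for Psap, from −0.182 to 0.102 for Grn and from −0.126 to 0.118 for Tfeb. The causes were not tested. Gla, Sgsh and Mcoln1, the 3 tested members with the lowest mean CPM, had the largest standard errors.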
